A study of Mus musculus with 4 samples.

Results

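The 49 genes described here encode the proteins that copy DNA: the factors that prepare replication origins, the helicase and its activators, the clamp and clamp loader, the polymerases, the enzymes that join DNA and supply nucleotides, the factors that rebuild chromatin behind the fork, and the cyclins and the transcription factor that start S phase. They were taken by name from the annotation of the array. Of the 49 listed genes 48 had a probe set paired with exactly 1 gene, out of 18193 such genes on the array, and 47 were bright enough to be tested, out of 11694. Chaf1a had no such probe set. Orc1 lay just below the level set for testing and Tyms just above it, at a mean log2 value of 8.60 and 8.69 against a limit of 8.69. The limit was the median over all probe sets that are not controls, and it used the mean over all 4 arrays.

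The samples were tracheas of C57BL/6 mouse embryos at embryonic day 16, with 2 arrays of an a1H knockout and 2 arrays of wild type, numbered 1 and 2 in each genotype. The name a1H is read here as the alpha-1H pore subunit of a T-type calcium channel, encoded by Cacna1h, and the design text speaks of homozygous embryos. How the allele was made, and whether a sample was 1 embryo or a pool, is not given in the sources used here, so p-values measure only the spread between these arrays, which may be technical. Values are MAS5 signals, the linear intensity that Affymetrix software gives for a probe set. Differences are labelled knockout minus wild type after adding 16 and taking log2, so those of dim genes come out too small.

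In a dividing cell, origins are licensed in G1 when the origin recognition complex, Cdc6 and Cdt1 load the MCM helicase, and they fire in S phase once Cdc45 and the GINS proteins join that helicase. Cyclin E and its kinase push cells over this boundary, and E2F factors switch on most of these genes together. Transcripts of the set are therefore known as a read-out of how many cells of a tissue are in cycle. In the embryonic trachea, dividing cells are found in the epithelium, the cartilage, the muscle and the other tissues of the wall.

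The labels were checked against the targeted gene and against tissue markers. Cacna1h read 981 and 631 in labelled knockout and 630 and 538 in wild type, a difference of 0.43 (SE 0.32, adjusted p 0.875 in limma). Its signal was not lower where the labels say knockout, and whether its probe set lies in the deleted part was not known, so the signal checks nothing and all directions here rest on the labels. Cartilage (Col2a1, Acan), epithelial (Krt5, Trp63) and smooth muscle (Acta2) markers of the trachea were above the level for testing, but Nkx2-1, a transcription factor of the airway, was below it at 145 and 145 in labelled knockout and 337 and 216 in wild type. Markers of other organs summed highest on the labelled knockout arrays, thymocyte genes on replicate 1 and placental genes on replicate 2. Thymocyte markers also differed between the wild-type arrays, with sums of 10470 and 22822. Array medians were 426 and 320.04 in labelled knockout and 459 and 416 in wild type.

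Promoter sequences are shown because the genes are known as shared targets of E2F. Windows of 300 bases around RefSeq starts, 250 before and 50 after, were at hand for 40 of the 49 genes in the assembly GRCm38.p6. They were searched on both strands for the letters TTTCCCGC, TTTGGCGC, TTTCGCGC and TTTGCCGC, which are forms of the E2F site, and matches could overlap. At least 1 match was in 15 of the 49 windows of the replication genes, or 30.6%, against 3.91% of 12122 windows of genes tested and 2.26% of all 32851 windows. The letters CCAAT, the core of the NF-Y site, were in 59.2% of the replication gene windows, against 37.4% of windows of genes tested.
The 250 bases before the start are printed for 6 genes. Each had the smallest unadjusted p of its role among genes with an E2F-type match there, and capitals mark the matches.
Cdc6, chr11:98907901-98908150, + strand: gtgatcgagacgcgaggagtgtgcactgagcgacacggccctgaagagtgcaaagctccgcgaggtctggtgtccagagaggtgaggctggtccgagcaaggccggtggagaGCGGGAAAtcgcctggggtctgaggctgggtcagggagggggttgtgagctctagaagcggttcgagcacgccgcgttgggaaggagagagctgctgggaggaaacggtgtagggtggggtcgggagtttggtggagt
Mcm5, chr8:75109259-75109508, + strand: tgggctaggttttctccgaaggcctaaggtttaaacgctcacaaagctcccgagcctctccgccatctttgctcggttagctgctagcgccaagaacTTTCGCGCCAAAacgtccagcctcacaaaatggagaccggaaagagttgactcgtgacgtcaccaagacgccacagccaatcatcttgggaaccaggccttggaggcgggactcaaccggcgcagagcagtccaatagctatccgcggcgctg
Gins3, chr8:95633309-95633558, + strand: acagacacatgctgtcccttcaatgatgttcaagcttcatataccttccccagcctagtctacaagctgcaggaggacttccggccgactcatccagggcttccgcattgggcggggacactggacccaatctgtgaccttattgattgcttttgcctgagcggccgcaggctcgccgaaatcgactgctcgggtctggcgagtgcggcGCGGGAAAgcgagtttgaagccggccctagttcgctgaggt
Rfc3, chr5:151651209-151651458, - strand: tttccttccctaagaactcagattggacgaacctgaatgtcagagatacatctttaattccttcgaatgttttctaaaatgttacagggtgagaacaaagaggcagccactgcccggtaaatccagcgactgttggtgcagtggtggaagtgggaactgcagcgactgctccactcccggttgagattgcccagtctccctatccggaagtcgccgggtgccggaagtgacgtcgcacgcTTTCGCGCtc
Pola1, chrX:93632156-93632405, - strand: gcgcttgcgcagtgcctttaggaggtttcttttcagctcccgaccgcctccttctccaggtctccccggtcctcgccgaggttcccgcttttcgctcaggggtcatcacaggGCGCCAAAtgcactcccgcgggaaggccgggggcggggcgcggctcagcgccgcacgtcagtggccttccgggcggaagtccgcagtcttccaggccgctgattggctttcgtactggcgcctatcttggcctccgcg
Uhrf1, chr17:56304063-56304312, + strand: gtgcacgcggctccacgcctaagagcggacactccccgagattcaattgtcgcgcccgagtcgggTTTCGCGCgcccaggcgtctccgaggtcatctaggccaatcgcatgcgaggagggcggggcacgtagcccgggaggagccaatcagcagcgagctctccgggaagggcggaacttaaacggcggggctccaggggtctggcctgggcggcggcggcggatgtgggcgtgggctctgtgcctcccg
The match begins 138 bases before the start in Cdc6 and Pola1 (position -138), and at -153 in Mcm5, where the letters of both strands overlap, -41 in Gins3, -10 in Rfc3 and -185 in Uhrf1. Restricting the printed genes to matches before the start was decided after the matches were seen. Of the 15 genes with a match, 10 had one before the start, and Cdt1, Pold1, Lig1, Mcm3 and Pole2 had matches only in the 50 bases after it. A match says only that these letters are there. The differences on the arrays had a median of 0.38 over the 14 tested genes with a match and 0.41 over the 24 with an entry and no match.

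Replication genes read higher on the labelled knockout arrays nearly throughout, by a fold of 1.32 at the median, and none passed the test. Of the 47 tested genes 45 had a mean difference above 0, where 55.9% of all genes tested did, and with each array centred on its median the count was 42, where 46.1% of all genes were above 0. The median log2 difference was 0.40, with the middle of the set between 0.28 and 0.53, and over all genes tested the median was 0.04. The 2 genes on the other side were Mcm4 and Ccne2, at -0.08 and -0.07. In 31 of the 47 genes both labelled knockout arrays lay above both wild-type arrays, and in 0 both lay below, against 21.5% and 14.6% of all genes tested. Limma called 0 of the 47 at a Benjamini-Hochberg adjusted p under 0.05 and 0 of all 11694 genes (0%), with 0.875 as the smallest adjusted p. At an unadjusted p under 0.05 there were 12 of the 47, all higher in the labelled knockout, against 2.83% of all genes tested in that direction and 4.58% in either. An exact two-sided permutation test of 2 arrays against 2 cannot give a p below 0.333. These genes were listed with earlier results of the same arrays known, so their counts describe the set and do not test it.

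**Figure D1:**
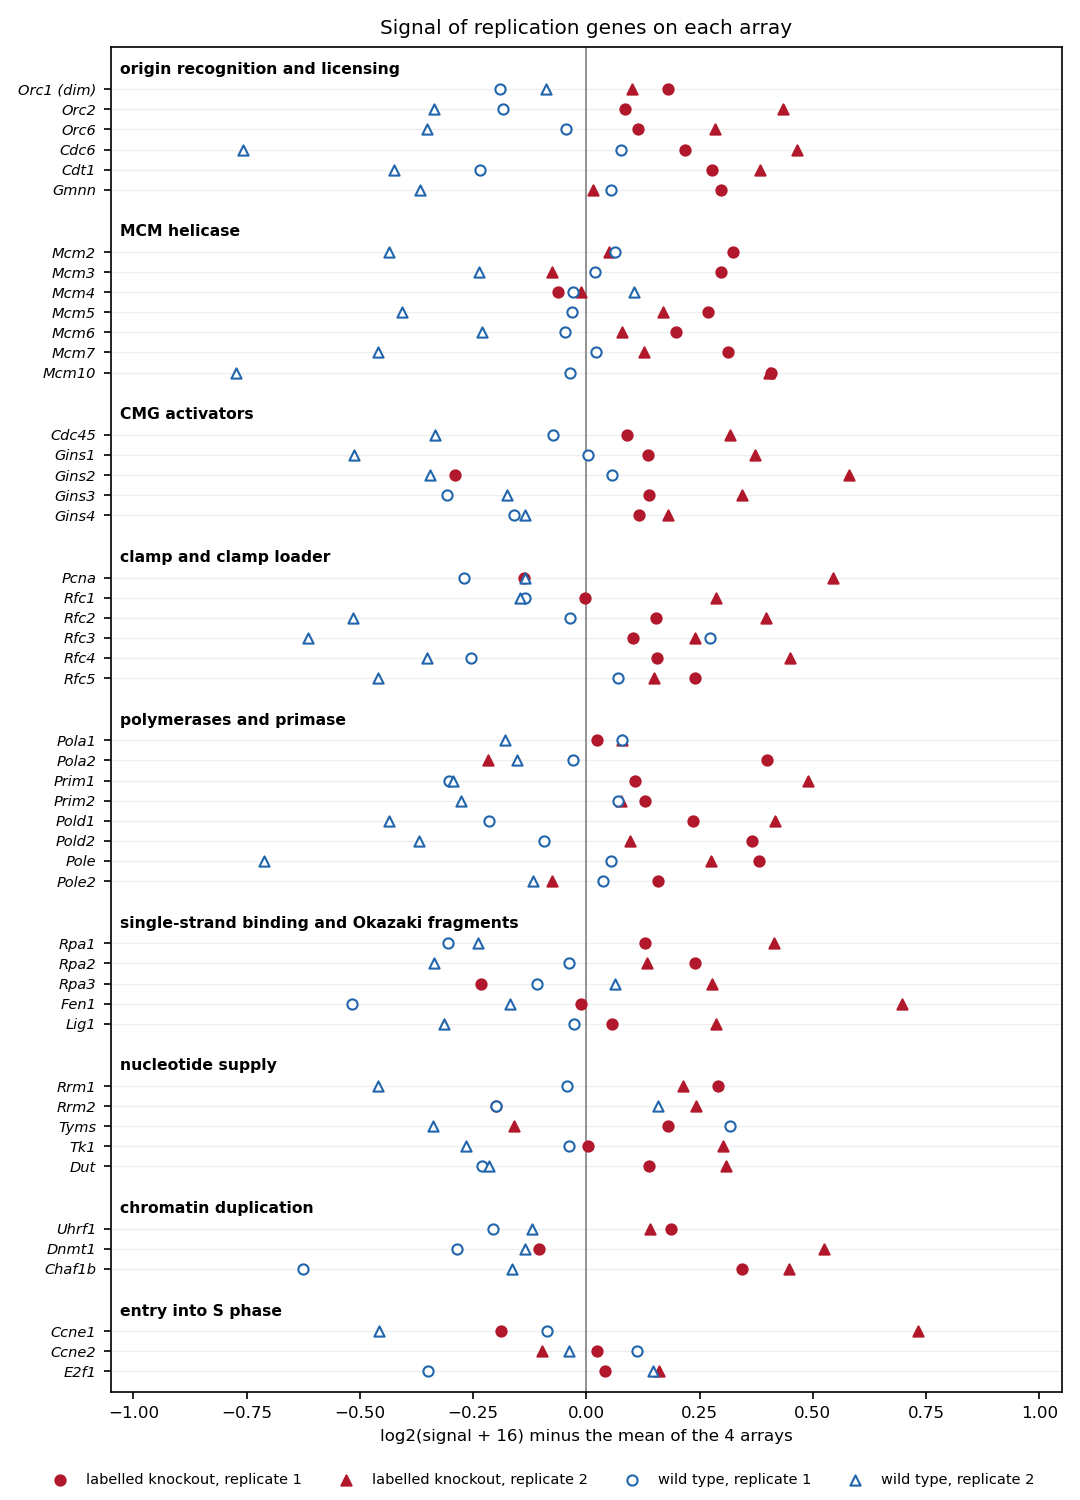
Signal of each replication gene on each array, as log2(signal + 16) minus the mean of the gene's 4 arrays (horizontal axis), grouped by role; filled red symbols are labelled knockout, open blue symbols wild type, circles replicate 1 and triangles replicate 2, and the gene marked dim was below the level for testing. In 31 of 47 tested genes the red symbols lie to the right of both blue ones, and wild-type replicate 2 is the lowest array in 31 genes.

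How the 4 arrays line up shows what the set's shift rests on. Labelled knockout replicate 2 was the highest array for 26 of the 47 genes and labelled knockout replicate 1 for 16, while wild-type replicate 2 was the lowest for 31 and wild-type replicate 1 for 12. Over all genes tested, labelled knockout replicate 2 was highest in 31.5% and labelled knockout replicate 1 in 28.3%. Wild-type replicate 2 was lowest in 30.5% of them and wild-type replicate 1 in 20.9%. Within replicate number 1 the median difference of the replication genes was 0.24, and within replicate number 2 it was 0.59. Above 0 were 39 and 44 of the 47 genes, against 55.1% and 54.5% of all genes tested. All 4 pairings of a labelled knockout with a wild-type array had a median above 0, the others being 0.42 for knockout replicate 1 minus wild-type replicate 2 and 0.35 for knockout replicate 2 minus wild-type replicate 1. The 2 wild-type arrays differed from each other by nearly as much as the smallest of these, with a median of 0.23 for replicate 1 minus replicate 2, and the labelled knockout arrays by -0.12. Both differences were above 0 in 38 genes, where 36% of all genes tested had both above 0. The value within number 2 was the larger in 40 of 47, and in 6067 of all 11694 genes tested. When wild-type replicate 2 was dropped, the median of the set was 0.26.

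**Figure D2:**
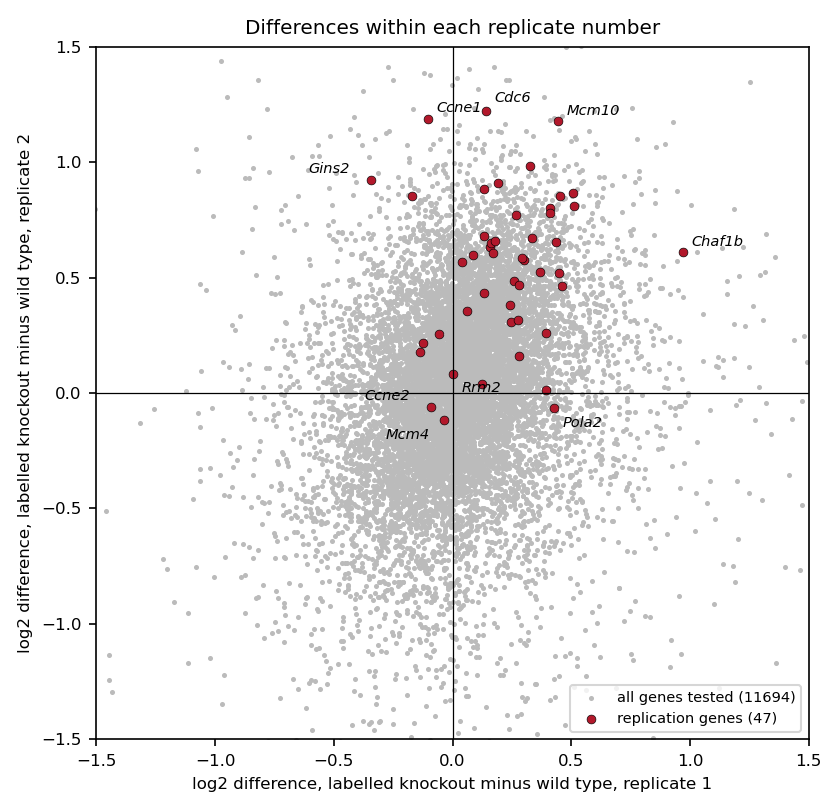
Log2 difference, labelled knockout minus wild type, between the replicate 1 arrays (horizontal axis) and between the replicate 2 arrays (vertical axis), with replication genes in red and all genes tested in grey; 182 grey genes lie beyond the axes at 1.5. Of the 47 replication genes 38 lie in the upper right part, with Chaf1b farthest right at 0.97 and Cdc6, Ccne1 and Mcm10 highest at 1.22, 1.19 and 1.18.

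Among the licensing factors, Cdt1 and Cdc6 stood higher on the labelled knockout arrays, and all 5 tested were above 0 with a median of 0.52. Cdt1, which brings the MCM helicase to origins, read 7260.1 and 7817 on the labelled knockout arrays, against 5084 and 4455 on the wild-type arrays. Its groups were far apart relative to their own spread, and its log2 difference of 0.66 (SE 0.17) had the smallest unadjusted p of the set, 0.0062 in limma, with an adjusted p of 0.875. A second Cdt1 probe set gave 0.60. Cdc6, the ATPase that loads the helicase with Cdt1, read 1808 and 2149 in labelled knockout and 1639 and 911 in wild type, a difference of 0.68 (SE 0.32). Wild-type replicate 2 was far below the other 3 arrays for Cdc6, and the difference was 0.14 within number 1 and 1.22 within number 2. Gmnn, the geminin that holds Cdt1 in check, read 5889 and 4842 in labelled knockout and 4976 and 3711 in wild type. The geminin groups overlapped, at a difference of 0.31. Of the origin recognition subunits, Orc2 read 2333 and 2976 in labelled knockout and 1933 and 1738 in wild type, without overlap, a difference of 0.52 (SE 0.22), and its second bright probe set gave 0.14. Orc6 had 0.40 and the dim Orc1 0.28, both without overlap, where 21.5% of all genes tested were higher without overlap. The other probe set of Orc1, dimmer still, gave -0.23 and was lower in labelled knockout within both numbers, so the sign of Orc1 depended on the probe set.

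The MCM helicase, a ring of 6 different subunits that unwinds DNA at the fork, gave differences between -0.08 and 0.44 for the ring itself. With Mcm10, 6 of 7 genes were above 0, and the median was 0.37. Mcm2 read 5782 and 4776 in labelled knockout and 4824 and 3406 in wild type, and Mcm3 read 7084 and 5467 and 5839 and 4889 in the same order. In both genes the groups overlapped, with labelled knockout replicate 2 below wild-type replicate 1. Mcm5 read 6616 and 6173 in labelled knockout and 5367 and 4132 in wild type, Mcm6 read 9879.6 and 9091 against 8335 and 7337, and Mcm7 read 8463 and 7442 against 6908 and 4949. These 3 subunits were higher in labelled knockout without overlap, as were 21.5% of all genes tested. Their differences were 0.44, 0.28 and 0.44, with SEs of 0.19, 0.18 and 0.21. Mcm4 alone sat on the other side, with 13004 and 13477 in labelled knockout and 13326 and 14615 in wild type, but its other bright probe set gave 0.20, so its sign depended on the probe set.

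Other probe sets of the ring above the level for testing gave differences above 0, and a dim one of Mcm6 gave -0.57. The 5 Mcm3 probe sets above the level for testing ran from 0.21 to 0.69, and the 4 of Mcm7 from 0.44 to 0.70. The second bright probe set of Mcm5 read 2411 and 2703 in labelled knockout and 1737 and 1129.7 in wild type, a difference of 0.86. Mcm10, a separate protein that helps start the assembled helicase, had the largest difference of all 47, 0.81 with an SE of 0.33. It read 1026 and 1024 in labelled knockout and 750.1 and 443 in wild type, and its second probe set gave 0.67 and a dim one -0.43. The interval of the Mcm10 difference, 0.04 to 1.58 before adjustment, shows how little 2 arrays a group fix its size.

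Cdc45 and the 4 GINS subunits, which turn the MCM ring into an active helicase, all had differences above 0, with a median of 0.41. Values were 0.51 for Gins1, 0.48 for Gins3, 0.41 for Cdc45, 0.30 for Gins4 and 0.29 for Gins2. In 4 of the 5 the labelled knockout was higher without overlap, against 21.5% of all genes tested. Gins2 was the exception, with 1807 and 3311 in labelled knockout and 2300 and 1736 in wild type, a difference of -0.35 within number 1 and 0.93 within number 2.

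Pcna, the sliding clamp that keeps polymerases on DNA, read 11399.5 and 18296 in labelled knockout and 10397 and 11407 in wild type. Only labelled knockout replicate 2 stood out, and its log2 difference was 0.41 with an SE of 0.27. The clamp loader subunits Rfc4 and Rfc2 were among the 12 genes at an unadjusted p under 0.05. Rfc4 read 3511 and 4305 in labelled knockout and 2637 and 2465 in wild type, a difference of 0.61 (SE 0.19), and a second probe set gave 0.81. Rfc2 read 4658 and 5518 in labelled knockout and 4080.3 and 2926 in wild type, a difference of 0.55 (SE 0.22). Its other bright probe sets gave 0.54 and 0.06, and the last read 2399 and 1267 in labelled knockout and 2215 and 1257 in wild type, with overlap. Rfc5, Rfc3 and Rfc1 had 0.39, 0.34 and 0.28, and a dimmer probe set of Rfc1 gave -0.09. All 6 clamp and loader genes were above 0 with a median of 0.40. In 4 of them the labelled knockout was higher without overlap, against 21.5% of all genes tested.

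Over the 8 polymerase and primase genes, all above 0, the median was 0.33. Pole, Pold1 and Prim1 had the largest values of the 8. Pold1, the catalytic subunit of polymerase delta, read 6826 and 7733 in labelled knockout and 4989 and 4277 in wild type, a difference of 0.65 (SE 0.18, adjusted p 0.875 in limma), and its second bright probe set gave 0.41. Prim1, which makes the RNA primers, read 6929.5 and 9029 in labelled knockout and 5210.1 and 5243 in wild type, a difference of 0.60 (SE 0.19), with 0.28 on its second probe set. Both lay above wild type on each labelled knockout array. Pole, the catalytic subunit of the leading-strand polymerase epsilon, had 0.66 (SE 0.29), and Pold2 had 0.46, the same within each number to 2 decimals. The other 4 had smaller values, 0.08 for Pole2, 0.10 for Pola1, 0.18 for Pola2 and 0.21 for Prim2, and all but Prim2 overlapped. Labelled knockout was higher without overlap in 5 of the 8, against 21.5% of all genes tested. The interval for Pole2, -0.45 to 0.61, includes differences as large as that of Rfc4, so a smaller value there does not set it apart from the others.

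Of the proteins that protect and join new strands, Rpa1 and Fen1 had the largest differences. Rpa1, the large subunit of the single-strand binding complex, read 9125 and 11112 in labelled knockout and 6742 and 7058 in wild type, a difference of 0.54 (SE 0.19), with 0.42 on its second probe set. Fen1, the nuclease that trims Okazaki fragments, read 8901 and 14563 in labelled knockout and 6266 and 7988 in wild type, a difference of 0.69 (SE 0.27). Labelled knockout replicate 2 was far above the other 3 arrays for Fen1. A second probe set of Fen1 gave 0.52, with 2805 and 3064 in labelled knockout and 2018 and 2065 in wild type. Rpa2 and the ligase Lig1 had 0.37 and 0.34, without overlap, and Rpa3 had 0.05 with overlap. Labelled knockout was higher without overlap in 4 of the 5, against 21.5% of all genes tested. The median of the 5 genes was 0.37.

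The 5 genes of nucleotide supply had a median of 0.30. In 3 of them the labelled knockout was higher without overlap, against 21.5% of all genes tested. Rrm1, the large subunit of ribonucleotide reductase, read 6016 and 5699.6 in labelled knockout and 4772 and 3569.8 in wild type, a difference of 0.50 (SE 0.20). Its second bright probe set gave 0.08, with 987 and 1187 in labelled knockout and 1051 and 1000.1 in wild type, so the groups overlapped there. Its partner Rrm2, whose level is known to follow S phase, read 16186 and 21961 in labelled knockout and 16165 and 20719.6 in wild type, a difference of 0.04. The Rrm2 values split by replicate number and not by genotype, and its 2 other probe sets gave 0.21 and 0.40. Dut, the dUTPase that keeps uracil out of DNA, read 9711 and 10929 in labelled knockout and 7522 and 7601 in wild type, a difference of 0.45 (SE 0.18), with 0.37 on its second probe set. Tk1, thymidine kinase, had 0.30. Tyms, thymidylate synthase, read 453 and 354 in labelled knockout and 499.7 and 311 in wild type on a dim probe set, a difference of 0.02. Its other 1-gene probe sets were below the level for testing and gave 0.06, -0.64 and -0.55. A further and brighter probe set is annotated to Tyms and its pseudogene together and so was not used, and it read 4759 and 6591 in labelled knockout and 4625 and 3974 in wild type, a difference of 0.38.

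Chromatin factors of the replication fork had a median difference of 0.42. In all 3 genes measured the labelled knockout was higher without overlap, against 21.5% of all genes tested. Chaf1b, a subunit of the histone chaperone CAF-1, read 1136 and 1221 in labelled knockout and 572 and 795 in wild type, a difference of 0.79 (SE 0.28). Uhrf1, which guides the maintenance methylase to new DNA, read 13779.8 and 13334 in labelled knockout and 10489 and 11136 in wild type, a difference of 0.33 (SE 0.20), and its second probe set gave 0.27. Dnmt1, that methylase, read 11094 and 17193 in labelled knockout and 9799 and 10868 in wild type. Its difference was 0.42 (SE 0.26), and the 2 other Dnmt1 probe sets gave 0.31 and 0.15.

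The genes that open S phase overlapped between genotypes in all 3 cases, as did 7477 of all 11694 genes tested. Ccne1, a cyclin E, read 1982 and 3767 in labelled knockout and 2129 and 1643 in wild type, so that labelled knockout replicate 2 alone stood high, and its difference was 0.54 (SE 0.32), or -0.10 within number 1 and 1.19 within number 2. Ccne2, the other cyclin E, read 2564 and 2357 in labelled knockout and 2728 and 2455 in wild type, a difference of -0.07. E2f1, the activating transcription factor, read 1659 and 1801 in labelled knockout and 1260.5 and 1786 in wild type, a difference of 0.20 (SE 0.25). A second bright probe set gave 0.23 for Ccne1 and 0.35 for E2f1, and a dim one of E2f1 gave -1.21.

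Calls of single genes depended on which arrays were fitted. Without labelled knockout replicate 1, limma called 6 of the 47 genes at an adjusted p under 0.05, where 4.21% of all genes tested were called. They were Fen1, Ccne1, Prim1, Pold1, Rfc4 and Cdt1, with log2 differences of 1.04, 1.004, 0.79, 0.74, 0.75 and 0.71. In that fit the 1 remaining labelled knockout array, replicate 2, is assumed to vary like the wild-type ones. On that array placental markers summed to 214944, against at most 1027 on the others. Leaving out any of the other 3 arrays gave 0 calls among the 47. Over all genes tested it gave 0.889% when labelled knockout replicate 2 was left out, 0% for wild-type replicate 1 and 0.00855% for wild-type replicate 2. The median of the set was above 0 in each of these fits, at 0.45 and 0.35 when labelled knockout replicate 1 or replicate 2 was dropped, and at 0.51 and 0.26 when wild-type replicate 1 or replicate 2 was.

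**Figure D3:**
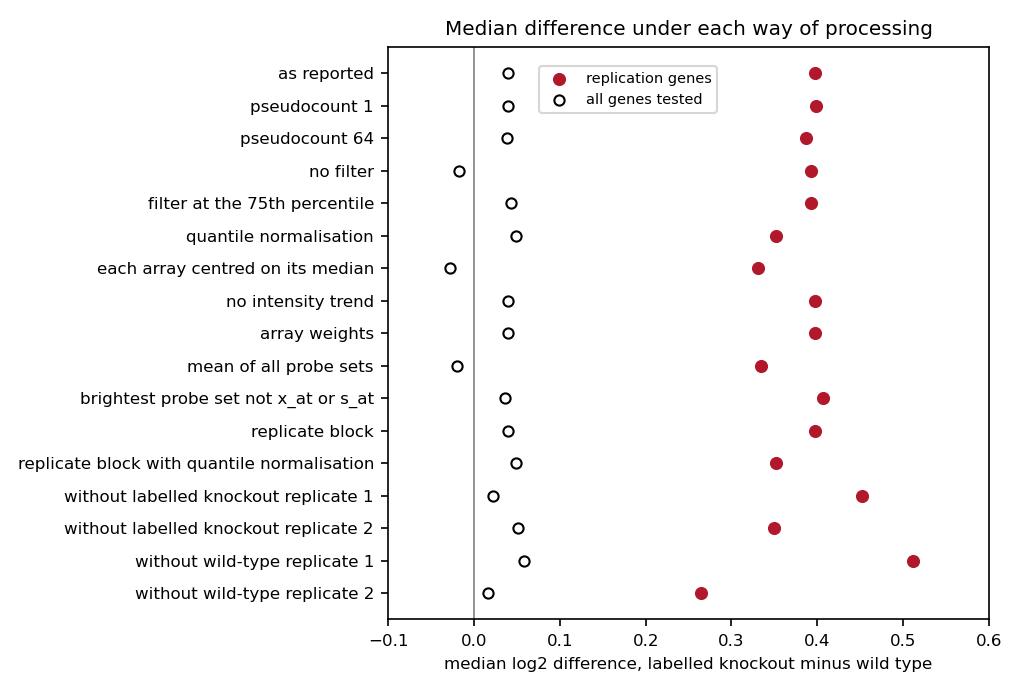
Median log2 difference, labelled knockout minus wild type (horizontal axis), over the tested replication genes (red) and over all genes tested (open) under each way of processing (rows). The red points run from 0.26 with wild-type replicate 2 dropped to 0.51 with wild-type replicate 1 dropped, and the open points from -0.03 to 0.06.

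Probe sets not chosen for the set nearly all had the same sign where they were bright, and not where they were dim. The 48 genes had 104 probe sets, of which 85 were at or above the level for testing. Of the 38 bright ones that were not the brightest of their gene, 37 had a difference above 0, with a median of 0.33, whereas 49.9% of all bright 1-gene probe sets did. Of the 29 genes with more than 1 bright probe set, 27 had all of them above 0, and Mcm4 and Rfc1 had both signs. The size was far smaller on a second bright probe set for some genes, such as 0.12 for Gins1, 0.09 for Gins3 and 0.05 for Rpa2. The bright probe sets of Rfc2 were the farthest apart of any of the 29 genes. The 19 dim probe sets had 7 above 0 and a median of -0.26, close to the median of -0.27 and the share of 29.8% above 0 over all 15367 dim 1-gene probe sets. Probe sets of 1 gene share their RNA and often their transcript, so they check the probes and not the genotype.

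Further genes of DNA replication, 50 that are not in the set, read higher too, by less. Of 44 tested, 40 were above 0 and 19 did not overlap with the labelled knockout higher (21.5% of all genes tested), and the median was 0.24, with 0.16 within number 1 and 0.25 within number 2. Asf1b, a histone chaperone of the fork, read 4553 and 4826 in labelled knockout and 3504 and 2768 in wild type, a difference of 0.59 (SE 0.19). Timeless, of the fork protection complex, had 0.64, Umps of pyrimidine synthesis 0.57 and Rnaseh2b, a subunit of an RNase of RNA-DNA hybrids, 0.43. Limma called 0 of the 44, and 2 had an unadjusted p under 0.05, where 4.58% of all genes tested did. Top2a, a topoisomerase of dividing cells, read 8937 and 10998 in labelled knockout and 9898 and 9060.2 in wild type, with overlap. It falls outside the rule for named genes and was chosen after its values were seen.

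Regulators of the step from G1 to S had no common direction. Of 30 tested, 20 were above 0, where 55.9% of all genes tested were, and the median was 0.08. Without overlap, 9 were higher and 4 lower in labelled knockout, against 21.5% and 14.6% of all genes tested. Limma called 0, and 4 had an unadjusted p under 0.05 (4.58% of all genes tested), all higher in labelled knockout. Those 4 were E2f4, Myb, Cdc25a and Skp2. E2f4, an E2F known mainly as a repressor, read 848 and 715 in labelled knockout and 482 and 386 in wild type, a difference of 0.83. Cdc25a, the phosphatase that activates the kinase of cyclin E, read 2478 and 3381 in labelled knockout and 1665 and 2139.7 in wild type, a difference of 0.61. Skp2, which targets the inhibitor p27 for destruction, had 0.53. Myb, a factor of blood and other progenitors, read 13327 and 12517 in labelled knockout and 5855 and 10173 in wild type, a difference of 1.18 within number 1 and 0.30 within number 2.

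Thymocyte and placental markers each summed highest on 1 array. The 2 erythroid markers tested and some epithelial markers differed from wild type on both labelled knockout arrays. Thymocytes divide fast in the fetus, and 17 of 18 thymocyte markers had a probe set, with a summed signal of 46058 and 19923 in labelled knockout and 10470 and 22822 in wild type, and none at 0. Labelled knockout replicate 1 was the highest array for 15 of the 17. Over the 10 tested, the median difference was 2.72 within number 1 and -0.14 within number 2, where 4 of 10 were above 0. The median of the replication genes was 0.24 within number 1 and 0.59 within number 2, and the part of thymocytes in it was not tested. Placental markers, of which 10 of 13 had a probe set, summed to 793 and 214944 in labelled knockout and 956 and 1027 in wild type, and 9 of 10 were highest on labelled knockout replicate 2. With that array dropped, the median of the replication genes was 0.35, and the part of placental RNA in their values was not tested. Erythroid markers, 8 of 12 with a probe set, summed to 17463 and 18329 in labelled knockout and 14046 and 13500 in wild type. Alas2, an enzyme of heme synthesis, had 0.36 and Slc4a1, the red cell anion exchanger, 0.42, both without overlap (21.5% of all genes tested). The other 6 with a probe set were below the level for testing. Of these, Gata1 and Epb42 were higher in labelled knockout without overlap, and Hba-a1, Klf1, Epor and Ermap overlapped. The part of red cell precursors in the replication genes was not tested. Cartilage markers summed to 53549 and 78710.3 in labelled knockout and 63840 and 80481 in wild type. Smooth muscle markers summed to 32455 and 30061 in labelled knockout and 28829 and 43425 in wild type, with 4 of 4 mean differences below 0 and all overlapping. The smooth muscle sign reversed between numbers. All 4 genes were above 0 within number 1 and below 0 within number 2, with medians of 0.23 and -0.72. Epithelial markers summed to 44032 and 55195 in labelled knockout and 51949 and 62838 in wild type, and 6 of 7 tested were below 0. The epithelial genes Sox2, Cdh1 and Foxj1 were lower in labelled knockout without overlap, at -0.60 (SE 0.19), -0.40 (SE 0.22) and -0.28 (SE 0.29). Of all genes tested 14.6% were lower without overlap, and none of these 3 passed the test. Krt5, Krt15, Trp63 and Epcam overlapped, at 0.16, -0.08, -0.07 and -0.12. In whole tissue, more dividing cells and more RNA per cell cannot be told apart.

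**Figure D4:**
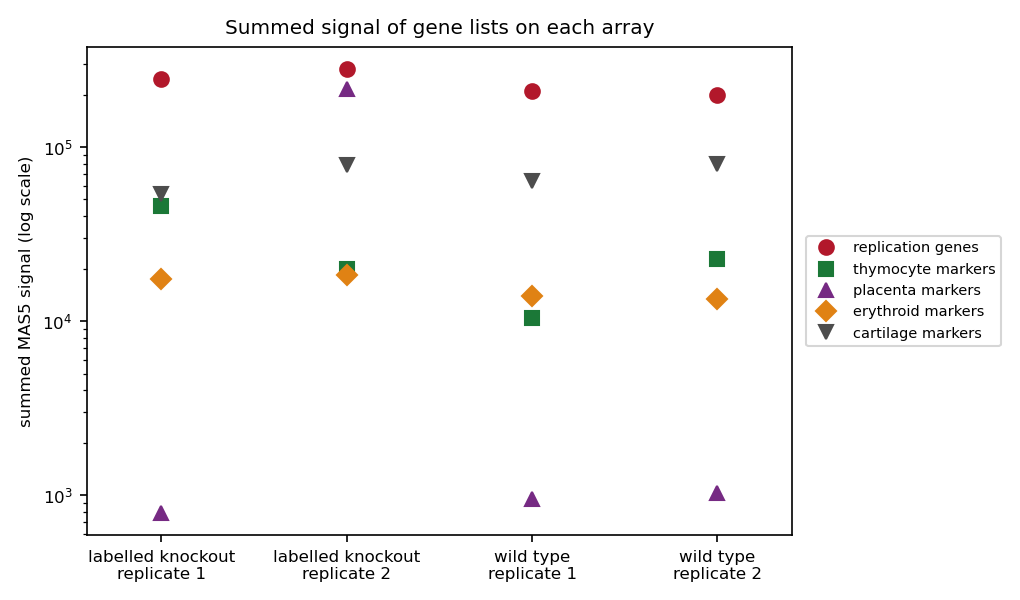
Summed MAS5 signal (vertical axis, log scale) of the replication genes and of the thymocyte, placental, erythroid and cartilage markers on each array (horizontal axis). Replication genes sum to 244947 and 280200 in labelled knockout and 210148 and 199038 in wild type, thymocyte markers peak on labelled knockout replicate 1 at 46058, and placental markers reach 214944 on labelled knockout replicate 2 against at most 1027 on the other arrays.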

How the data were processed

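Total RNA was amplified and biotin-labelled with NuGEN Ovation kits, per the labels' protocols. The deposited table holds 1 intensity per probe set and array, which the submitters' processing notes name as MAS5 without saying more. Detection calls were not used here. Each array's mean after trimming 2% at each end was 1500, so arrays looked scaled to 1 target. MAS5 is noisy for dim probe sets.

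Groups and replicate numbers came from titles. Of 45101 probe sets, 34945 had exactly 1 gene in the platform annotation, with symbols updated through a RefSeq table of GRCm38.p6. The brightest probe set of each gene was kept, and genes with a mean log2(signal + 16) at or above the median of 45037 non-control probe sets, a signal of 397, were tested. Genotype was fitted alone in limma 3.58.1 (R 4.3.3, lmFit, eBayes with intensity trend) over all 4 arrays and 11694 genes, with Benjamini-Hochberg adjustment and a threshold of 0.05. Intervals are 95% and unadjusted. Only 2 arrays a group limit the precision. The code was tested on simulated data. Promoter windows are RefSeq's, and opposite-strand windows that overlap were reverse complements in 1668 of 1668 cases. Figures used matplotlib 3.10.9.

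The genes and lists were chosen with earlier results of these data known. Signals were given per array for the 12 genes of smallest unadjusted p and for 18 fixed genes (Mcm2 to Mcm7, Pcna, Cdc6, Cdt1, Gmnn, Rrm1, Rrm2, Tyms, Uhrf1, Dnmt1, Ccne1, Ccne2 and E2f1), and of each further list the 4 genes of smallest unadjusted p were named. Genes of the marker lists, Gins2 and the further probe sets given were picked after their values were seen. Alternatives were the pseudocount (1 and 64), the filter (none, or the 75th percentile), quantile normalisation, centring, no trend, array weights, other probe set rules, the replicate number as a block, and each array left out. The block with quantile normalisation was added after the data were seen.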

Additional observations from a re-analysis of the deposited data

How the results depend on the processing

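The median difference of the replication genes ran from 0.26 to 0.51 under the 16 alternatives, always above that of all genes tested, and only 2 arrays a group limit every value. With the replicate number as a block the median was 0.40 and limma again called 0 of 47 genes and 0 of 11694, with a smallest adjusted p of 0.158. That median could not move, because with 1 array of each genotype per number the block changes p-values and not differences. No trend and array weights likewise left the differences unchanged. Deviations of same-numbered arrays from their group means had a correlation of 0.32 over genes, but the labels do not say what the numbers mark. Dropping 1 array gave 0 to 492 calls over all genes and 0 to 6 among the replication genes, and medians of 0.16 to 0.34 for the further replication genes and 0.064 to 0.12 for the regulators. Centring each array moved these medians to 0.17 and 0.0085, and that of all genes tested to -0.03.

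Of 736 values of single genes under the alternatives, 21 changed sign, over 12 genes, none of them called, and the causes were not tested. Many of the 736 could not change sign. Changing the filter, the trend, the array weights or the block left each gene's difference as it was. The block added to quantile normalisation repeats the differences of quantile normalisation alone. Rrm2 was -0.016 with quantile normalisation, -0.016 when the block was added to it and -0.024 with centring. Centring gave -0.021 for Rpa3 and -0.046 for Tyms. The mean of all probe sets gave 0.062 for Mcm4 and -0.34 for Prim2, and Mcm4 was 0.20 with its other bright probe set. With 1 array dropped, the lowest and highest values were -0.18 and 0.26 for Rrm2, -0.21 and 0.30 for Rpa3, -0.31 and 0.35 for Tyms, -0.13 and 0.49 for Pola2, -0.036 and 0.20 for Pole2, and -0.14 and 0.72 for Gins2. They were -0.15 and 0.0018 for Ccne2, -0.047 and 0.45 for E2f1, -0.10 and 0.78 for Rfc3, and -0.028 and 0.23 for Pola1.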
